A study of Homo sapiens with 27 samples.

Results

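The comparison described here is that of *GNAQ* mutant 92.1 cells, an established uveal melanoma line, after 21 days in the FAK inhibitor VS-4718 (FAKi) with cells kept in DMSO for the same time. Its members are the 3 libraries titled FAKi day 21 and the 3 titled DMSO day 21, 6 of the 27 mRNA libraries of the series. The remaining libraries are DMSO at day 0 and both treatments at days 3, 7 and 14, again in groups of 3. All cells grew in RPMI with serum, the inhibitor was given at 100 nM, and medium and treatment were renewed every 72 h. The column of DMSO replicate 3 carries an additional digit in its day, while its sample title gives day 21. The study asked which transcriptional changes accompany continued FAK inhibition at a dose that leaves proliferation largely in place, with the semaphorin and plexin genes as its main interest. The other genes and functions are described here.

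FAK, encoded by *PTK2*, is a tyrosine kinase of focal adhesions, the sites at which integrins tie the extracellular matrix to the actin cytoskeleton. In uveal melanoma the mutant G protein alpha subunit encoded by *GNAQ* signals through phospholipase C and ERK, and through TRIO to FAK and the transcriptional coactivator YAP. 92.1 is a melanocytic line, and its lineage program is driven by the transcription factors MITF and SOX10.

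*PTK2* mRNA itself was at 103, 102 and 141 CPM (counts relative to library size, TMM-scaled over the 6 libraries) in DMSO and at 118, 124 and 138 CPM in FAKi. The groups overlapped, and its log2 fold change was 0.13 ± 0.16 (SE, n = 3 per group, adjusted p = 0.59 by the quasi-likelihood test of edgeR after Benjamini-Hochberg adjustment). VS-4718 acts on the kinase, so the mRNA is no check of the treatment. *GNAQ* was at 35.8 CPM in DMSO and 27.3 CPM in FAKi on average (log2 fold change -0.39, adjusted p = 0.127).

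The 6 libraries held between 17137554 and 40189978 counts. The DMSO libraries did not form a tight group. Over 17012 genes with a mean of at least 1 CPM, DMSO replicates 1 and 2 differed by a root mean square of 0.293 on the log2 scale, whereas DMSO replicate 3 lay 0.700 and 0.739 from them and 0.566 to 0.584 from the 3 FAKi libraries. The FAKi libraries lay between 0.303 and 0.385 from each other. Genes of the mitochondrial chromosome took 5.49% of the counts in DMSO replicates 1 and 2, 9.75% in DMSO replicate 3 and 10.7% to 11.2% in the FAKi libraries. The part of this share in the differences below was not tested. The melanocyte markers were present in every library (0 of 8 at 0, summed level 11773 to 14260 CPM in DMSO and 15362 to 15539 CPM in FAKi). Of these 8, 5 had a positive log2 fold change and 3, *S100B*, *MLANA* and *MITF*, a negative one. The markers *PTPRC*, *CD3E*, *KRT5*, *THY1* and *CDH5* of other cell types were at or near 0, whereas the fibroblast marker *COL1A1* was at 3.63 to 5.47 CPM. Of the markers of other cell types, *KRT18* (42.0 CPM in DMSO, 11.9 CPM in FAKi), *CD68* (64.5 and 25.8 CPM), *KRT8* and *LUM* were called lower. In bulk RNA, fewer cells of a type and less RNA per cell cannot be told apart.

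Of 23212 genes tested, 1226 (5.28%) were called, that is, passed an adjusted p of 0.05 with a log2 fold change beyond 1 in either direction. Of these, 598 genes (2.58%) were higher and 628 (2.71%) lower in FAKi. A rise or fall of a gene below means FAKi relative to DMSO at the same day, and not a change over time. With the replicate number as a block, 2076 genes were called (8.94%), 1285 higher (5.54%) and 791 lower (3.41%), and 1191 of the 1226 genes were among them in the same direction. The median log2 fold change of all genes tested was 0.01. The genes called lower were shorter, with a median exon length of 1772 bases against 3143 bases for those called higher and 2357.5 bases for all genes tested. lncRNAs made up 32.1% of the genes called higher, 14.2% of those called lower and 20.1% of all genes tested. The median level was also lower in the genes called higher, at 3.39 CPM against 9.58 CPM for those called lower and 6.95 CPM for all. The count depended on single libraries. It was 4248 without DMSO replicate 3, 397 without DMSO replicate 1, 363 without DMSO replicate 2, 412 without FAKi replicate 1, 52 without FAKi replicate 2 and 148 without FAKi replicate 3. There were 50 genes (0.215% of those tested) called in the comparison, with the block and in all 6 fits that leave out a library, 15 higher and 35 lower. A call in these 8 fits is given below as a call in every fit. Of the 50 genes, 3 were semaphorin or plexin genes. Of all genes tested, 18.3% had every FAKi library above every DMSO library and 17.1% every FAKi library below. Among the 1226 genes called, 1225 had no overlap, so separate groups in a called gene add little to its call.

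**Figure D1:**
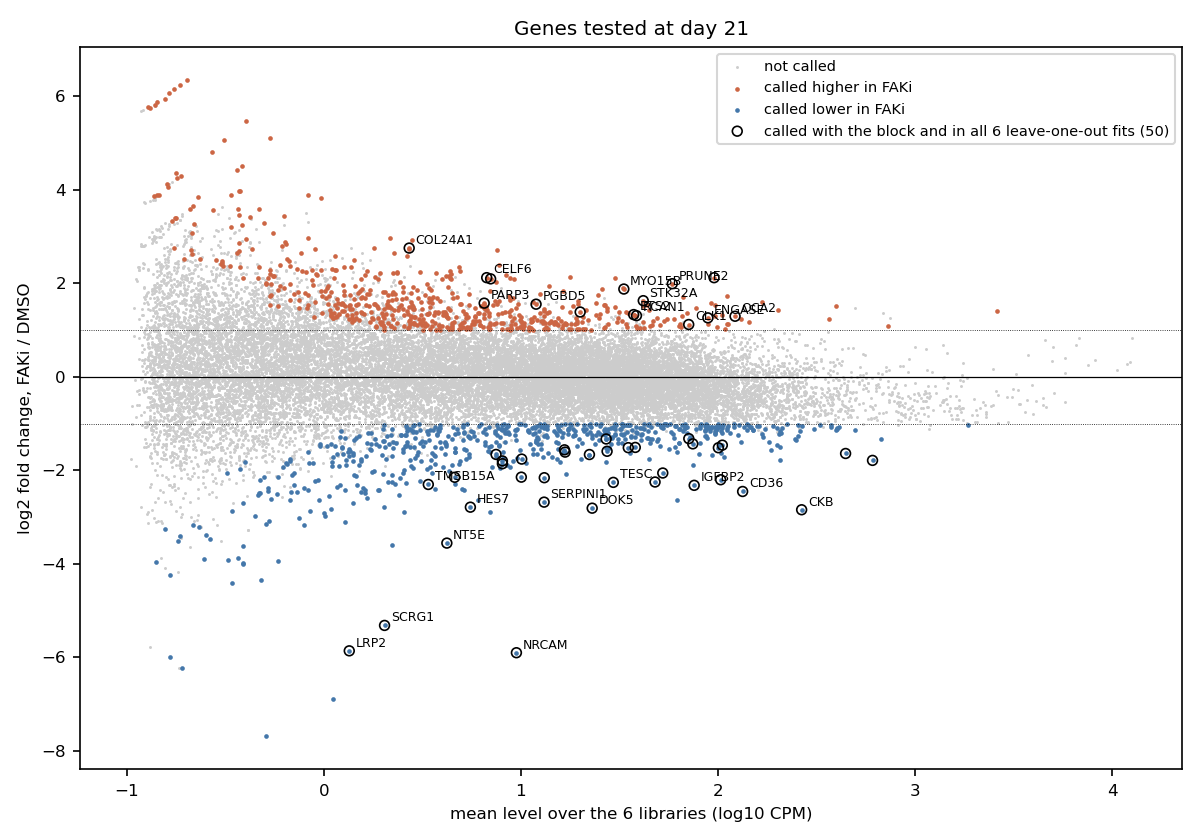
Each point is a gene tested at day 21, by its mean level over the 6 libraries (log10 CPM) and its log2 fold change in FAKi relative to DMSO. Orange and blue points are the 598 genes called higher and the 628 called lower, rings mark the 50 genes called with the block and in all 6 fits that leave out a library, and the dotted lines stand at a log2 fold change of 1 and -1.

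The largest differences among these 50 genes were in genes lower in FAKi. *NRCAM*, a neuronal cell adhesion molecule of the L1 family, had 514, 265 and 563 counts in the DMSO libraries and 14, 0 and 9 in the FAKi libraries. *LRP2*, the endocytic receptor megalin, had 78, 35 and 80 counts in DMSO and 1 in each FAKi library. The groups were far apart for both genes. Relative to the scaled library sizes, the summed counts of *NRCAM* were 58.3-fold higher in DMSO (95% exact counting interval 38.7 to 92.3), and those of *LRP2* 64.3-fold (21.7 to 315). These intervals cover counting error only. The log2 fold change of *NRCAM* was -5.90 ± 0.58 (adjusted p = 0.00348, edgeR). *SCRG1*, first described as a gene that responds to prion infection, had 307 counts over the DMSO libraries and 7 over the FAKi libraries (log2 fold change -5.32 ± 0.50). *NT5E*, the cell surface enzyme CD73 that makes adenosine from AMP, was at 7.14, 5.64 and 10.6 CPM in DMSO and at 0.622, 0.385 and 0.886 CPM in FAKi.

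The highest-expressed genes that fell in every fit were *VGF*, a secreted neuropeptide precursor (943 CPM in DMSO, 273 CPM in FAKi), and *A2M*, the protease inhibitor alpha-2-macroglobulin (672 and 215 CPM), both named after their values were seen. An antisense gene overlaps the *A2M* locus. *CKB*, the brain-type creatine kinase, followed at 501, 543 and 354 CPM in DMSO and at 69.4, 66.3 and 58.9 CPM in FAKi (log2 fold change -2.84 ± 0.19, adjusted p = 0.00135, edgeR). *CD36*, a fatty acid and lipoprotein receptor, was at 194, 211 and 270 CPM in DMSO and at 44.2, 37.3 and 41.9 CPM in FAKi (log2 fold change -2.45 ± 0.17, adjusted p = 0.00135). Every FAKi library was well below every DMSO library for both genes. *FABP3*, an intracellular fatty acid binding protein, fell by 2.06 on the log2 scale. Secreted or signaling products were also lower, among them the insulin-like growth factor binding protein *IGFBP2* (-2.32), the related *IGFBPL1* (-1.61), the serine protease inhibitor *SERPINI1* (-2.68) and the insulin receptor docking protein *DOK5* (-2.81). *EEF1A2*, a translation elongation factor of muscle and neurons, fell by 2.25, the calcium-binding protein *TESC* by 2.26 and the transcriptional repressor *HES7* by 2.79. *CAPN3*, a calpain protease with a melanocyte transcript, was at 150 to 157 CPM in DMSO and at 55.0 to 57.5 CPM in FAKi, though 23.8% of its exon bases are shared with another gene on the same strand. *ATP6V0E2*, a subunit of the vacuolar proton pump, fell by 1.59, and an antisense gene covers 31.7% of its exon bases. *TMEM132A* (-1.51) is a membrane protein, and *TMSB15A* (-2.30), an actin-sequestering thymosin, has a near-identical paralog between which reads can be split.

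Fewer genes rose in every fit. *COL24A1*, a fibrillar collagen chain, was at 0.586, 0.627 and 0.898 CPM in DMSO and at 4.40, 4.62 and 5.14 CPM in FAKi (log2 fold change 2.75 ± 0.27, adjusted p = 0.00339, edgeR). *PRUNE2* was at 23.5, 19.0 and 28.1 CPM in DMSO and at 76.9, 84.9 and 119 CPM in FAKi (log2 fold change 1.99 ± 0.21). The groups did not overlap for either gene. *MYO15B*, an unconventional myosin gene, rose by 1.88, *STK32A*, a serine/threonine kinase, by 1.63, the ADP-ribosyltransferase *PARP3* by 1.57 and the transposase-derived gene *PGBD5* by 1.55. *ETS2*, an ETS transcription factor, rose by 1.33, *RCAN1*, an inhibitor of calcineurin, by 1.31, *ENGASE*, which releases N-glycans from proteins, by 1.26, and *CLK1*, a kinase of splicing factors, by 1.12. *CELF6*, an RNA-binding protein of splicing, had a log2 fold change of 2.12, but all of its exon bases overlap other genes annotated on the same strand. Outside these genes, those with the smallest p among the higher calls were *HSF4*, a heat shock transcription factor, *NARS2*, the mitochondrial asparaginyl-tRNA synthetase, *LINC01531*, the tight junction gene *CLDN15*, *HERC2P2*, *PLA2G6*, *SEC31B* and *PABPC1L*, with log2 fold changes of 1.12 to 1.54. All 8 lost their call without FAKi replicate 2 only, and *HERC2P2* is a pseudogene that shares sequence with its parent. Other genes overlap 36.2% of the exon bases of *HSF4* and 24.9% of those of *SEC31B* on the same strand, and 27.4% of those of *PLA2G6* on the opposite strand.

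**Figure D2:**
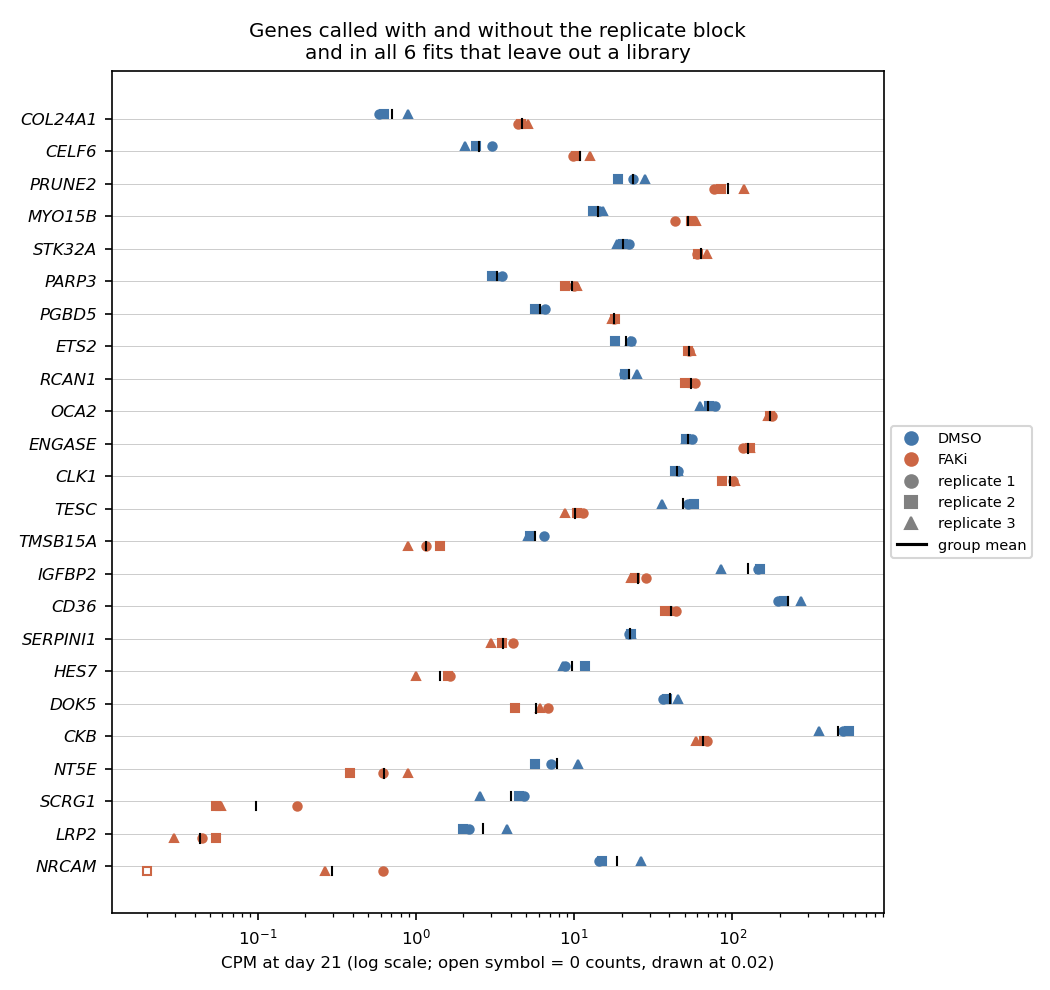
Level in each library (CPM, log scale) of the 12 genes with the largest rise and the 12 with the largest fall among those called with the block and in all 6 fits that leave out a library, at a mean of at least 1 CPM and leaving out semaphorin and plexin genes and genes with no symbol. Blue symbols are DMSO and orange symbols FAKi, the shape gives the replicate number, black bars are group means, and an open symbol marks a library without counts. No DMSO library overlapped a FAKi library for any of the 24 genes, which follows from their selection, since 1225 of the 1226 genes called had no overlap.

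The genes of functional lists were then read from the same fit. The lists are described by counts and medians only, and no test was made of a list. The share of members called is given for comparison with the 5.28% of all genes tested.

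**Figure D3:**
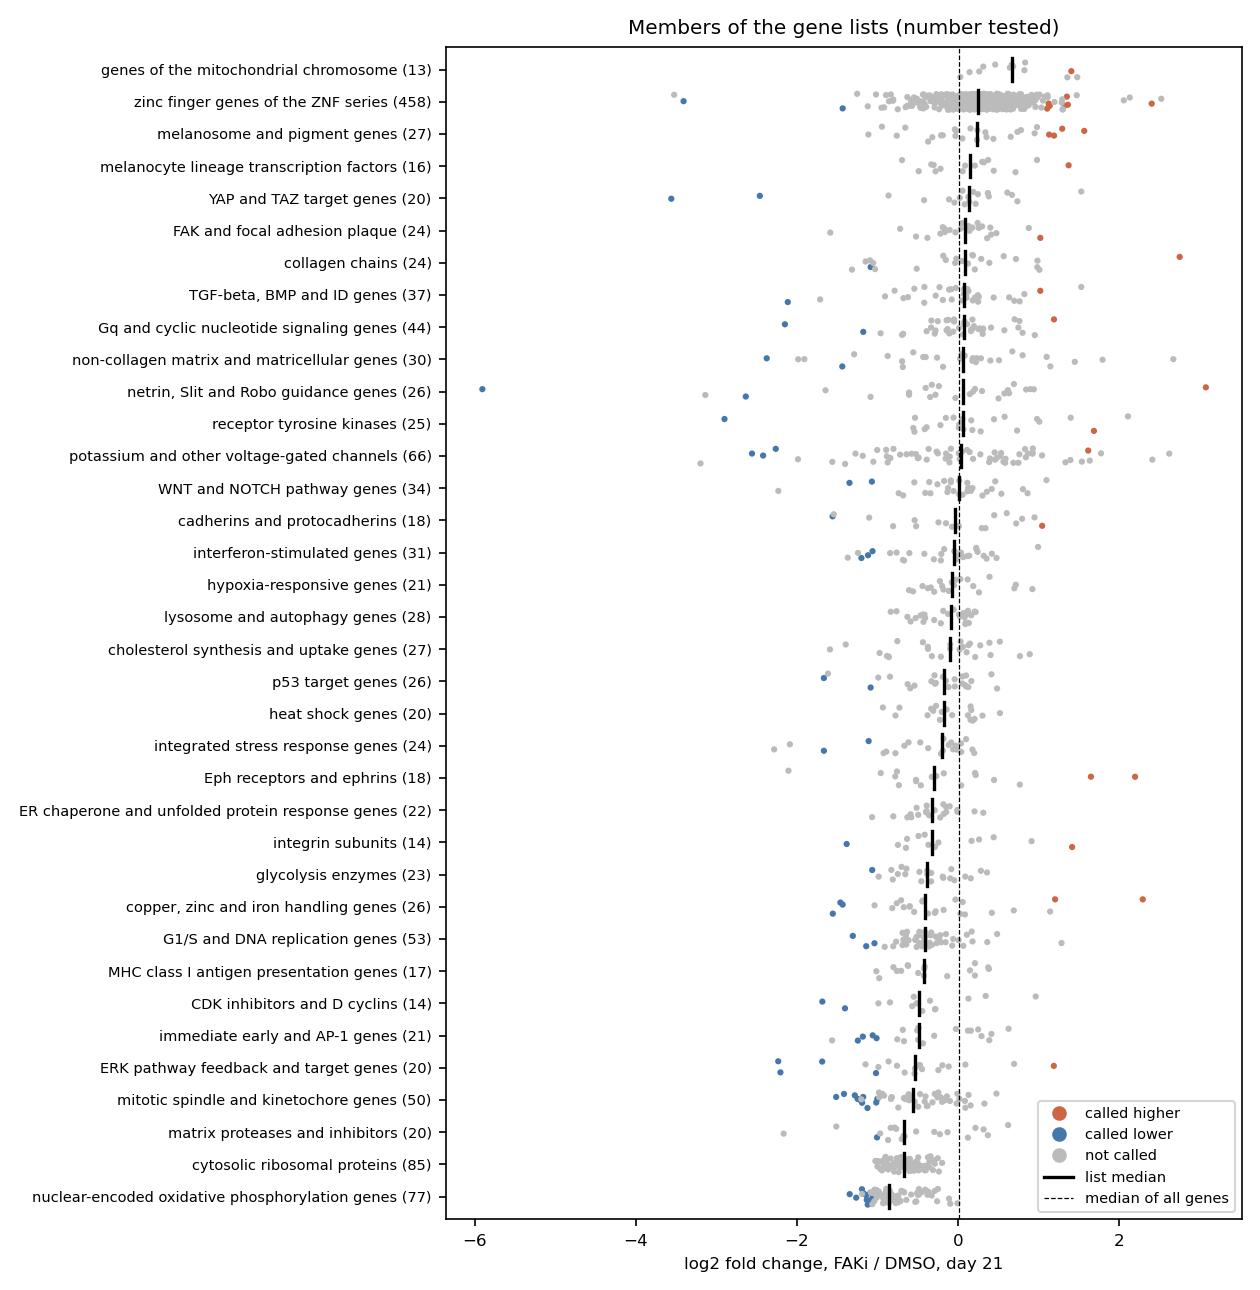
Log2 fold change (FAKi relative to DMSO) of each tested member of the gene lists, ordered by list median. Orange and blue points passed the test, gray points did not, black bars are list medians and the dashed line is the median of all genes tested (0.01). The lowest list median is that of the nuclear-encoded oxidative phosphorylation genes (-0.86) and the highest that of the mitochondrial chromosome (0.67).

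Of 24 genes of the focal adhesion plaque, 1 was called higher and 0 lower (4.17% against 5.28% of all genes tested), with a median log2 fold change of 0.09, and with the replicate block 1 was higher and 1 lower. The gene called was *TLN2*, the second talin, which links integrins to actin (4.53 CPM in DMSO, 9.25 CPM in FAKi, log2 fold change 1.02), and it was called in 1 of 6 fits that leave out a library. Among 14 integrin subunits 2 were called (14.3%). *ITGA9* rose (7.10 to 19.0 CPM, log2 fold change 1.42 ± 0.19) and the collagen receptor subunit *ITGA1* fell (2.92 to 1.10 CPM, -1.38 ± 0.29, called in 1 of 6 such fits). Without FAKi replicate 2 neither was called.

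Matrix genes were called in both directions. Of 24 collagen chains, *COL24A1* was higher and *COL9A3* lower (126 to 59.7 CPM, log2 fold change -1.08), which is 8.33%. With the replicate block, 3 collagen chains were higher and 4 lower. Of 30 other matrix genes, *FBLN1* and *LAMB3* were lower (6.67%), and with the block 1 was higher and 4 lower. *FBLN1*, the elastic fiber protein fibulin-1, was at 103 to 112 CPM in DMSO and at 36.1 to 42.4 CPM in FAKi, and was called in all 6 fits that leave out a library. *LAMB3*, the laminin beta 3 chain, was at 2.65 CPM in DMSO and 0.522 CPM in FAKi (-2.37 ± 0.36) and lost its call without FAKi replicate 2 or 3. The membrane protease *MMP15* (32.1 to 16.0 CPM) was the only called gene among 20 proteases and inhibitors (5%). Of 18 cadherins and protocadherins (11.1% called), *CDH7* rose by 1.05 and *PCDH7* fell by 1.56. The calls of *COL9A3*, *MMP15*, *CDH7* and *PCDH7* were lost without FAKi replicate 2. *COL9A3* was also lost without DMSO replicate 2, FAKi replicate 1 or FAKi replicate 3. *MMP15* was also lost without DMSO replicate 2 or FAKi replicate 3, and *CDH7* without DMSO replicate 1 or FAKi replicate 3.

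YAP and TAZ act through TEAD transcription factors, and *CCN2* is a standard target. Of 20 target genes tested, 2 were lower and 0 higher (10% called), and the list median was 0.14. *CCN2*, a matricellular growth factor, was at 2.29, 2.17 and 3.35 CPM in DMSO and at 0.534, 0.550 and 0.354 CPM in FAKi (log2 fold change -2.46 ± 0.35, adjusted p = 0.0075, edgeR). The groups were separate, but the level was low in both, the call was lost without FAKi replicate 2 or 3, and an antisense gene covers 11.9% of its exon bases. The other gene was *NT5E*. The 250 bases before the *CCN2* start site are shown because they carry the TEAD motif GGAATG (in capitals, searched on both strands) at 3 places, the nearest ending 90 bases before the start. The sequence is that of RefSeq for GRCh38.p14, chr6:131951373-131951622, minus strand.

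CCN2: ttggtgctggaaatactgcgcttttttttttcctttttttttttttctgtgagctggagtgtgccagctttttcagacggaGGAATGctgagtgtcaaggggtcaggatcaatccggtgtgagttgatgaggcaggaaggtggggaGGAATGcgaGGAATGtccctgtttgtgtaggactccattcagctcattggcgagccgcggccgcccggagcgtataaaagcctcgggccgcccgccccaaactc

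At least 1 GGAATG stood in the 250 bases before any RefSeq start site of 6 of the 14 YAP target genes with a sequence (42.9%). The same held for 13.02% of the genes tested and 14.3% of all genes with a RefSeq promoter. Such a match is a description of the letters.

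Of 20 ERK pathway feedback and target genes, 4 were called lower and 1 higher, with a median of -0.54. That is 25% called, where 2.71% of all genes tested were lower and 2.58% higher. *ETV4*, an ETS factor induced by ERK, was at 172, 188 and 148 CPM in DMSO and at 36.3, 38.1 and 36.0 CPM in FAKi (log2 fold change -2.20 ± 0.14, adjusted p = 0.00135, edgeR), with separate groups and a call in every fit. Its relative *ETV5* fell by 1.02 (call lost without DMSO replicate 3, FAKi replicate 2 or FAKi replicate 3). *MYEOV* and *FOSL1*, both under 3 CPM, were named after their values were seen and had log2 fold changes of -2.23 and -1.68. *TRIB2*, a pseudokinase, rose by 1.19. Without FAKi replicate 2 the counts of this list were 1 lower, *ETV4*, and 0 higher, and without FAKi replicate 3 they were 2 and 0.

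Of 21 immediate early and AP-1 genes, which respond within minutes to growth signals, 4 were lower and 0 higher (19.0% called), with a median of -0.49. *NR4A1*, an orphan nuclear receptor, was at 250 to 267 CPM in DMSO and at 117 to 127 CPM in FAKi (-1.06 ± 0.12). *MAFF*, a small MAF factor, was at 28.5, 30.3 and 30.6 CPM in DMSO and at 14.2, 15.4 and 14.7 CPM in FAKi (-1.01 ± 0.13). Its groups were separate, although the fold change lay at the limit for a call and 5 of the 6 fits that leave out a library did not call it. *FOS* fell by 1.18. *FOSB*, named after its values were seen, fell by 1.24. Without FAKi replicate 2 none of the 4 was called. Opposite-strand genes cover 15.6% of the exon bases of *NR4A1* and 13.3% of those of *MAFF*. The *MAFF* promoter is shown for its cAMP response element TGACGTCA (in capitals), a palindrome that ends 47 bases before the first of its 2 RefSeq start sites (GRCh38.p14, chr22:38201744-38201993, plus strand).

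MAFF: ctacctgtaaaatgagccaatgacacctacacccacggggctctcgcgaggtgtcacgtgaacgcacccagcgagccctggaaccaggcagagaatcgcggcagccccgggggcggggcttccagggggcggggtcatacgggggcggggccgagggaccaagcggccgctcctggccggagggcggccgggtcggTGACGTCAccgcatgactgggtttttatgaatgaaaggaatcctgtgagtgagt

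The element stood in 2 of the 17 genes of this list with a promoter (11.8%), against 3.22% of the genes tested and 2.03% of all genes with a promoter. Of the 4 genes called, 1 held it, *MAFF* itself, which was chosen for display because of it.

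Of 44 Gq and cyclic nucleotide signaling genes, 3 were called (6.82% against 5.28% of all genes tested). *RGS2*, which ends signaling by Gq, was at 17.1, 17.4 and 14.7 CPM in DMSO and at 3.47, 4.01 and 3.63 CPM in FAKi (log2 fold change -2.15 ± 0.17), with a call in every fit. *RGS10* also fell (-1.17), and *DGKI*, a diacylglycerol kinase, rose by 1.19. Of 25 receptor tyrosine kinases (8% called), *ALK* was lower (4.52 to 0.607 CPM, -2.90 ± 0.36) and *FGFR2* higher (1.62 to 5.22 CPM, 1.69 ± 0.31), and with the replicate block 3 were higher and 1 lower. Of 18 Eph receptors and ephrins (11.1% called), *EPHA4* rose (1.58 to 7.30 CPM, 2.20 ± 0.30), as did *EPHB1* at a lower level (0.361 to 1.13 CPM). Of 26 netrin, Slit and Robo guidance genes and their adhesion partners (11.5% called), *L1CAM* (10.4 to 1.67 CPM, -2.63 ± 0.37) joined *NRCAM* among the lower genes, and *NTNG1*, netrin G1, was higher (0.116 to 0.988 CPM). Without FAKi replicate 2, *RGS2* and *NRCAM* kept their calls, and the other genes of this paragraph lost theirs. Of the fits that leave out a library, only the fit without DMSO replicate 3 called *RGS10*, *FGFR2*, *EPHB1* and *NTNG1*.

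Of 27 melanosome and pigment genes, 4 were called higher and 0 lower (14.8% called), with a median of 0.24, and 11 of the 27 had a negative log2 fold change. With the replicate block 5 were higher and 1 lower, by DESeq2 4 and 1, and without DMSO replicate 3 they were 3 and 2. *OCA2*, a melanosome membrane protein needed for pigmentation, was at 78.2, 71.2 and 62.5 CPM in DMSO and at 178, 174 and 168 CPM in FAKi (log2 fold change 1.30 ± 0.13, adjusted p = 0.00379, edgeR), separate in every library. *MYO5A*, the myosin that carries melanosomes along actin, rose from 46.2 to 137 CPM (1.57 ± 0.22) and lost its call without FAKi replicate 2. *DCT*, an enzyme of melanin synthesis, had a log2 fold change of 1.19 and *MLPH*, the adaptor of that myosin named after its values were seen, of 1.13, and they were called in 1 and 0 of the 6 fits that leave out a library. Of 16 lineage transcription factors, *IRF4* alone (6.25%) was called (0.855 to 2.28 CPM, 1.37, in 1 of 6 such fits). The *OCA2* promoter is shown because it holds the M-box core CATGTG (in capitals, searched on both strands), the motif of MITF, ending 148 bases before the start (RefSeq, GRCh38.p14, chr15:28099316-28099565, minus strand).

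OCA2: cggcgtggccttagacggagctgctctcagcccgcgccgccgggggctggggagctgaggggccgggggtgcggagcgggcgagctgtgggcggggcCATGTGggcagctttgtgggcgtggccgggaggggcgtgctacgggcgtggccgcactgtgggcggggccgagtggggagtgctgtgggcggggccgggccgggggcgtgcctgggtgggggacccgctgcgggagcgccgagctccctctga

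The core stood in 13 of the 20 pigment genes with a promoter (65%), against 8.91% of the genes tested and 11.5% of all genes. Of the 4 called genes it stood in 2 (50%).

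The mitotic genes that passed the test were all lower at day 21. Of 50 mitotic spindle and kinetochore genes, 10 were called lower and 0 higher (20% called), with a median log2 fold change of -0.56, and the median was -0.48, -0.50 and -0.65 within replicates 1, 2 and 3. *CCNB1*, cyclin B1, was at 96.7, 106 and 89.5 CPM in DMSO and at 44.6, 42.8 and 39.6 CPM in FAKi (-1.20 ± 0.13, adjusted p = 0.0038, edgeR). *UBE2C*, the ubiquitin-conjugating enzyme of the anaphase-promoting complex, was at 47.3, 49.8 and 38.8 CPM in DMSO and at 18.1, 17.7 and 15.3 CPM in FAKi (-1.41 ± 0.15). *MAD2L1*, of the spindle checkpoint, fell by 1.24. The groups were separate for these 3 genes. The other called genes, named after their values were seen, were *BIRC5* (-1.51), *SPC24* (-1.28), *AURKB* (-1.19), *CDC25C* (-1.18), *CDK1* (-1.12), *NUF2* (-1.01) and, barely past the limit, *CDC20*. The number called was 0 without FAKi replicate 2, 3 without FAKi replicate 3 and 5 without DMSO replicate 2, while the list median stayed between -0.62 and -0.42 in the 6 fits that leave out a library.

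Many genes that peak in G2 and mitosis carry a cell cycle homology region, TTTGAA. The *CDK1* promoter is shown as an example of a match to these letters, picked after its values and its match were seen. The match, in capitals, ends 156 bases before the start (RefSeq, GRCh38.p14, chr10:60778081-60778330, plus strand). Whether it is a working cell cycle homology region was not tested, and bases after the start were not searched.

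CDK1: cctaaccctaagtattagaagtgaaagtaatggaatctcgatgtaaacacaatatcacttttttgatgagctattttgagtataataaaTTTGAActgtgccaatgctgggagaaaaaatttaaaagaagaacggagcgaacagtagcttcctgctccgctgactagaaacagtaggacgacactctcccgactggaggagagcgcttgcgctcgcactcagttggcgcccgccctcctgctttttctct

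The motif, searched on both strands, stood in 24 of the 43 mitotic genes with a promoter (55.8%), in 12.3% of the genes tested and in 16.1% of all genes. Of the 8 called mitotic genes with a promoter it stood in 3 (37.5%).

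Of 53 G1/S and DNA replication genes, 3 were called lower and 0 higher (5.66% called), with a median of -0.41. They were *TK1*, thymidine kinase (63.1 to 25.6 CPM, -1.30), the replication licensing factor *CDT1* (-1.04) and the replication factor *GINS2* (-1.14). For *TK1*, DMSO replicate 3, at 40.0 CPM, lay nearer to the FAKi libraries (21.7 to 28.5 CPM) than to the other DMSO libraries (72.99 and 76.3 CPM). In the 5 fits that leave out a library other than DMSO replicate 3, none of the 3 was called. Of 14 CDK inhibitors and D cyclins (14.3% called), *CDKN1C*, encoding p57, fell by 1.68 and *CDKN2D*, encoding p19, by 1.40, both lost without FAKi replicate 2. *CDKN2D* was also lost without DMSO replicate 1 or FAKi replicate 3.

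In genes of energy metabolism and translation, DMSO replicate 3 lay apart from DMSO replicates 1 and 2. Of 77 nuclear-encoded oxidative phosphorylation genes, 13 were called lower and 0 higher (16.9% called), with a median of -0.86, and DESeq2 called 22 lower. Without DMSO replicate 3, 46 were called lower, and without DMSO replicate 1, DMSO replicate 2, FAKi replicate 2 or FAKi replicate 3 the number was 0. The median was -0.89, -1.07 and -0.35 within replicates 1, 2 and 3. *SDHB*, an iron-sulfur subunit of complex II, shows the pattern, with 102, 110 and 71.2 CPM in DMSO and 48.8, 44.1 and 40.6 CPM in FAKi (-1.08 ± 0.18). *NDUFC2* of complex I (-1.09) and *COX8A* of complex IV (-1.02) fell as well, with reads of other genes possible in 19.7% and 35.4% of their exon bases, and *COX8A* was not called with the block. Of 85 cytosolic ribosomal protein genes 0 were called by edgeR and 3, all lower, by DESeq2. Their median was -0.67, and 45 were lower at an unadjusted p under 0.05, as were 17.3% of all genes tested. Without DMSO replicate 3, 32 ribosomal protein genes were called lower. Their median within replicate 3 was -0.11.

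The genes of the mitochondrial chromosome went the other way. Of 13, *MT-ND5*, a complex I subunit, was called higher (998, 1008 and 2280 CPM in DMSO, 3299, 3605 and 4473 CPM in FAKi, 1.41 ± 0.33, adjusted p = 0.0351, edgeR), and the median was 0.67. With the replicate block 3 were called higher. Within replicates 1, 2 and 3 the median was 1.06, 0.94 and 0.12. *MT-ND5* was called in 1 of 6 fits that leave out a library, the fit without DMSO replicate 3, where 6 of the 13 genes were called. Of 23 glycolysis enzymes (4.35% called), *HK1*, hexokinase 1, was lower (109 to 129 CPM in DMSO, 54.2 to 57.7 CPM in FAKi, -1.06 ± 0.12), and was not called without DMSO replicate 3 or FAKi replicate 2.

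**Figure D4:**
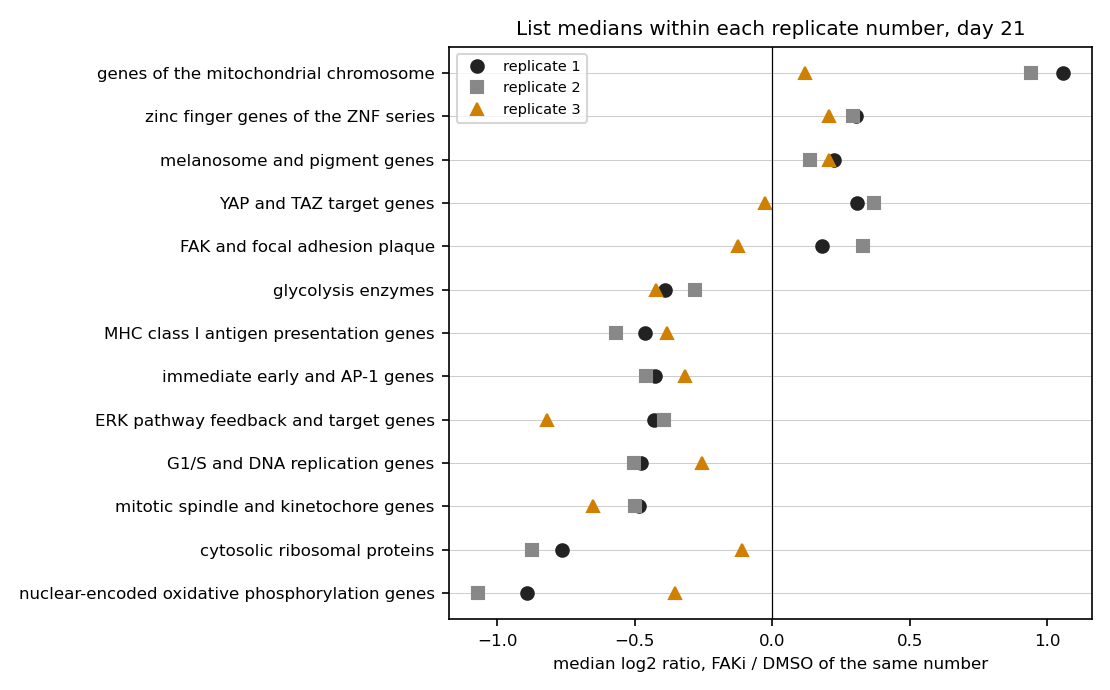
Median log2 ratio over the members of 13 gene lists, FAKi over DMSO of the same replicate number, with a symbol for each number. The medians of replicate 3 lie near 0 for the ribosomal (-0.11) and mitochondrial chromosome (0.12) lists, where those of replicates 1 and 2 are far from it, and all 3 medians lie together for the mitotic list (-0.48 to -0.65).

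Of 26 p53 target genes and 24 integrated stress response genes, 2 each were called lower (7.69% and 8.33%, against 5.28% of all genes tested), and with the replicate block 2 and 4 were. *GDF15*, a stress-induced cytokine that is both a p53 and an integrated stress response target, was at 32.0, 39.8 and 29.7 CPM in DMSO and at 10.2, 11.5 and 10.3 CPM in FAKi (-1.66 ± 0.16), with a call in every fit. *ASNS*, asparagine synthetase, fell from 549 to 255 CPM (-1.11), though 81.96% of its exon bases overlap another gene on the same strand, and it was not called without FAKi replicate 2 or in the fit of all 27 libraries. *PLK2*, the other p53 target called (-1.08), was called in 1 of 6 fits that leave out a library. Of 21 hypoxia, 27 cholesterol, 22 ER chaperone, 20 heat shock, 28 lysosome and 17 MHC class I genes, 0 were called by edgeR, and their medians ran from -0.42 (MHC class I) to -0.08 (hypoxia). At an unadjusted p under 0.05, 4 to 10 genes of each of these lists were lower and 0 to 5 higher. Of all genes tested, 17.3% were lower and 15.4% higher at that p. The hypoxia list, with 4 of 21 lower and 3 higher, lay near those shares. With the replicate block 2 cholesterol genes were called lower, and by DESeq2 2 cholesterol genes, 1 ER chaperone gene and 1 MHC class I gene were. In the order of the first 5 of these lists, the highest-expressed members *DDIT4* (-0.11), *FDFT1* (-0.37), *HSP90B1* (-0.39), *HSP90AB1* (0.16) and *PSAP* (-0.43) stayed within a log2 fold change of 1. Of 31 interferon-stimulated genes, *IFI6* (-1.20), *IFI35* (-1.12) and *IFI44L* (-1.06) were lower (9.68% called). For *IFI6* the DMSO libraries were at 27.6, 27.6 and 12.8 CPM and the FAKi libraries at 8.86 to 10.5 CPM. The calls of the 3 genes held in 1 of 6 fits that leave out a library.

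Of 26 copper, zinc and iron genes, 3 were lower and 2 higher (19.2% called). The zinc importer *SLC39A8* (17.8 to 6.59 CPM, -1.43 ± 0.15), the transferrin receptor *TFRC* (149 to 54.2 CPM, -1.46 ± 0.19) and the metallothionein *MT2A* (-1.55) were lower. *ATP7A* (1.21) and *TF* (2.29), named after their values were seen, were higher and called in 1 of 6 fits that leave out a library. Of 66 voltage-gated and potassium channel genes (6.06% called), *KCNIP2* was higher (1.62), and *KCNJ11* (-2.26), *KCNMB4* (-2.56) and *KCNK1* (-2.42, named after its value was seen) were lower, and with the replicate block 3 were higher and 5 lower. *BMP4*, a secreted growth factor, rose from 9.08 to 18.5 CPM and its receptor *BMPR1B* fell from 3.59 to 0.856 CPM, among 37 TGF-beta and BMP genes (5.41% called). The NOTCH target *HES1* (-1.35) and the WNT receptor *FZD3* (-1.07) fell, among 34 WNT and NOTCH genes (5.88% called). Of 458 zinc finger genes of the ZNF series, 7 were higher and 2 lower (1.97% called, below the 5.28% of all genes tested), with a median of 0.25, and with the replicate block 17 were higher and 3 lower. *ZNF862* (14.1 to 36.1 CPM, 1.35), *ZNF75D* (1.13) and *ZNF596* (1.37) had the smallest p, and zinc finger genes share sequence. Without FAKi replicate 2 none of the genes of this paragraph was called. Of the fits that leave out a library, only the fit without DMSO replicate 3 called *MT2A*, *KCNMB4*, *ZNF75D* and *ZNF596*. *KCNJ11* and *BMPR1B* lost their calls without any of the FAKi libraries.

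The differences at day 21 were set against those of the earlier days in a fit of 24 libraries. For 1071 of 27897 genes (3.84%) the log2 fold change at day 21 differed from the mean of days 3, 7 and 14 by more than 1 at an adjusted p of at most 0.05 (edgeR), 517 above (1.85%) and 554 below (1.99%). Without DMSO day 21 replicate 3 this count was 2464, and without FAKi day 21 replicate 3 it was 485. The differences of *CCNB1* on the log2 scale were 0.15, -0.02, 0.40 and -1.21 at days 3, 7, 14 and 21, and *UBE2C* 0.61, 0.05, 0.55 and -1.42. Of the 50 mitotic genes, 25 differed from the earlier days, all below, and their list median was 0.79, 0.09, 0.38 and -0.57 at the 4 days. The G1/S list did the same, with 25 genes below and medians of 0.51, 0.59, 0.74 and -0.42. The summed mitotic level was 1439 to 1514 CPM in DMSO at day 21 and 896 to 973 CPM in FAKi, and both groups lay below those of day 14 (2287 to 2515 CPM in DMSO and 2905 to 3035 CPM in FAKi). At day 7, FAKi replicate 1 stood apart, at 2858 CPM. The summed G1/S level at day 7 was 1966 to 4502 CPM in FAKi and 1928 to 2117 CPM in DMSO. At day 14 it was 4356 to 4517 CPM in FAKi. The G1/S median of day 7 thus rests on FAKi libraries far apart from each other, and these libraries are part of the contrast with the earlier days.

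**Figure D5:**
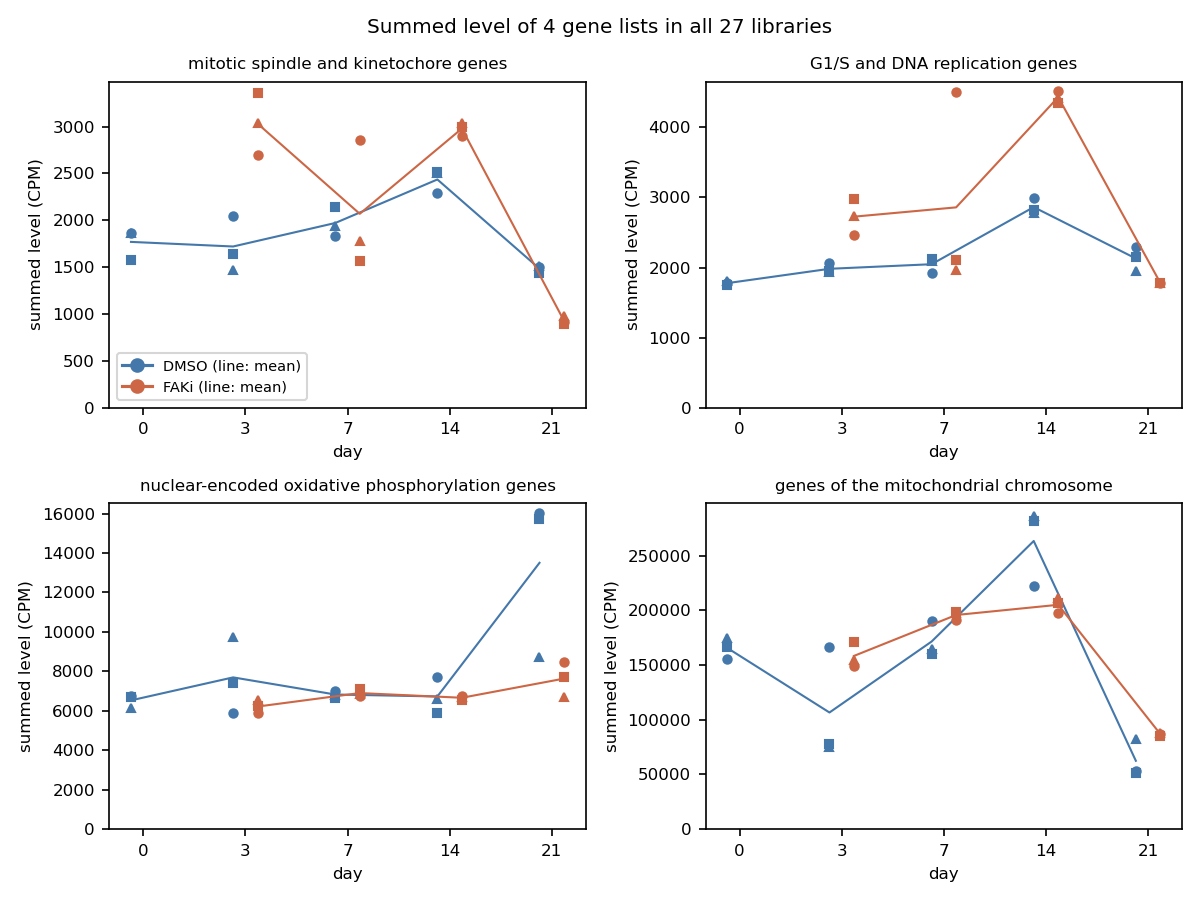
Summed level (CPM) of 4 gene lists in all 27 libraries by day, with the sampling days evenly spaced. Points are libraries, with the replicate number as shape, and lines join group means. At day 21 the FAKi libraries lie below the DMSO libraries for the mitotic and G1/S lists, while for the oxidative phosphorylation list DMSO replicates 1 and 2 stand above all other libraries.

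Other genes had the same sign at every day. On the log2 scale, *ETV4* differed by -0.51, -1.49, -2.43 and -2.21 at days 3, 7, 14 and 21, *RGS2* by -1.85, -1.28, -1.65 and -2.15, and *GDF15* by -0.99, -2.06, -1.79 and -1.67. For these 3 genes no difference between day 21 and the earlier days was called. *PRUNE2*, at 1.38, 1.35, 0.94 and 1.98, and *OCA2*, at 0.48, 0.74, 0.60 and 1.29, also kept their sign and were not called in that contrast. *CD36* (-0.30, -0.40, -0.45 and -2.46), *NRCAM* (-0.22, -1.97, -1.63 and -5.91) and *MYO15B* (0.06, -0.12, -0.40 and 1.87) were called in it. For some genes DMSO differed more between days 14 and 21 than FAKi did. With scaling over 27 libraries, *CKB* was at 81.2 and 468 CPM in DMSO and at 61.8 and 62.8 CPM in FAKi. *ATP6V0E2* was at 10.6 and 41.2 CPM in DMSO and at 10.1 and 13.2 CPM in FAKi. *CD36* differed in both arms (105 and 225 CPM in DMSO, 76.9 and 39.8 CPM in FAKi). These examples were picked after their values were seen. The summed level of the oxidative phosphorylation genes was 8744 to 16025 CPM in DMSO at day 21 and 6685 to 8492 CPM in FAKi, and in DMSO at days 0 to 14 it was 5896 to 9750 CPM.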

How the data were processed

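mRNA of 92.1 cells was sequenced by the authors with a stranded TruSeq kit. Their processing notes name Trim Galore, FastQC 0.11.8, STAR 2.5.3a, HOMER and the build hg38. The deposited values are raw exon counts per gene, made by the authors with HOMER's analyzeRepeats.pl on GENCODE 39 per the file header, which names no strand option. All values are whole numbers, and 0 columns lacked a sample. A column's replicate number equals the number of its NGS tag. The methods describe triplicate plating and 3 biological replicates, and the labels do not say which the replicate numbers mark, so p-values measure the spread between these libraries only.

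Genes with fewer than 20 counts over the 6 day 21 libraries were removed. Libraries were scaled by TMM, and FAKi was compared with DMSO by the quasi-likelihood F test of edgeR 4.0.16 (legacy method) in R 4.3.3, with Benjamini-Hochberg adjustment over all genes. Genes passing an adjusted p of 0.05 with a log2 fold change beyond 1 in either direction were called. The study's thresholds and filter were kept, with DESeq2 1.42.0 as an alternative to edgeR. The SE is the size of the log2 fold change divided by the square root of F. The contrast of day 21 with days 3, 7 and 14 used 24 libraries and the same test. The comparison, its block, its DESeq2 fit and the contrast with earlier days were tested on simulated data. Of 200 genes changed by 2 on the log2 scale, 191, 186, 197 and 164 were recovered in that order, with 14, 5, 22 and 6 false calls. The simulated libraries had no replicate effect and no outlying library, so this does not show how the fits behave with DMSO replicate 3. Changed genes were drawn only from those of at least 1 CPM, and the simulated spread of each gene was capped. Recovery and false calls are therefore not shown for genes of lower level or wider spread. Depth of 17137554 to 40189978 counts per library gives at least 17.1 counts per library at 1 CPM before scaling.

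Between DMSO and FAKi libraries of the same replicate number, deviations from group means correlated at 0.430, 0.135 and 0.650 for replicates 1, 2 and 3 (17012 genes of at least 1 CPM). DMSO replicate 2 with FAKi replicate 1 gave 0.477, and DMSO replicate 1 with FAKi replicate 2 gave 0.185. Numbers 1 and 2 were thus not told apart, and only replicate 3 matched its own number best. Deviations were centered within each group and DMSO replicate 3 lay apart, so these values do not settle a pairing. Over all 23212 genes the value for replicate 2 was 0.0556. The replicate block takes the numbers as pairs. The numbering comes from the labels.

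Named genes were *PTK2* and *GNAQ*. To these came up to 12 genes per direction, outside the semaphorin and plexin families and with a symbol other than an accession, with the largest log2 fold change among those called with the block and in all 6 leave-one-out fits at a mean of at least 1 CPM. Next came the 8 further such genes per direction with the smallest p at a mean of at least 5 CPM and separate groups. Each functional list gave up to 3 called members with the smallest p, or else its highest-expressed member. Last came the 5 genes per direction with the largest difference from the earlier days at a mean of at least 5 CPM. Genes outside this rule are said to be named after their values were seen, and so were *VGF*, *A2M* and the marker genes named singly. The members and the 37 lists, with 5 marker lists, were chosen from general knowledge with earlier results of these data known. The results of 1 list and of 1 named gene are not reported here. The cell cycle motif and the 4 promoters shown were chosen after seeing the data. Promoters are the 250 bases before RefSeq start sites (GRCh38.p14), with 91 of 116 named genes matched, and exon overlaps come from GENCODE 44. A gene with several start sites counts as holding a motif if any of its promoters does, so the motif shares also depend on the number of start sites.

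Alternatives were other scalings, filters and thresholds, DESeq2, the newer quasi-likelihood method, all 27 libraries in a single fit, no mitochondrial genes, each library left out, and the replicate block. The block without each pair and DESeq2 with the block were added after seeing the data.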

Additional observations from a re-analysis of the deposited data

Results flagged for a closer look

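In the contrast of the day 21 difference with the mean difference of days 3, 7 and 14, 1071 genes were called, and the named genes below were among them. The difference itself was tested, with edgeR over 24 libraries, and the values below are differences of log2 fold changes, day 21 minus the earlier mean, so a positive value can also come from a negative difference at the earlier days.

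At a mean of at least 5 CPM, the 5 genes with the largest positive values were *DNHD1* (2.08), *GABBR1* (2.07), *HERC2P3* (2.05), *NOX5* (2.40) and *MYO15B* (2.02). For *NOX5*, a calcium-activated NADPH oxidase, the log2 fold change was -2.47, -1.70, -3.27 and -0.08 at days 3, 7, 14 and 21, and another annotated copy of the gene shares 98.7% of its exon bases. *HERC2P3* is a pseudogene that shares sequence with relatives. For *GABBR1*, a GABA-B receptor subunit, DMSO replicate 3 was at 7.27 CPM, against 1.48 and 1.88 CPM in the other DMSO libraries and 10.6 to 19.7 CPM in FAKi. The 5 with the largest negative values at a mean of at least 5 CPM were *NRCAM* (-4.63), *FCRLA* (-2.68), *RAD9B* (-2.63), *APOBEC3A* (-2.46) and *CENPW* (-2.28).

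Of the cell cycle lists, *CCNB1* (-1.39), *UBE2C* (-1.82), *MAD2L1* (-1.66), *TK1* (-1.88), *CDT1* (-1.12), *GINS2* (-1.72) and *CDKN2D* (-1.42) differed from the earlier days. Among adhesion, matrix and endocytic genes they were *LRP2* (-3.26), *NT5E* (-2.90), *ITGA1* (-1.74), *COL9A3* (-1.34), *FBLN1* (-1.65), *LAMB3* (-1.77), *PCDH7* (-2.24), *CCN2* (-2.63) and *L1CAM* (-1.41). Among signaling, secreted and lipid receptor genes they were *FOS* (-1.25), *ALK* (-1.57), *BMPR1B* (-2.41), *DOK5* (-1.56), *HES7* (-1.49), *CD36* (-2.08), *IGFBP2* (-1.95), *IGFBPL1* (-1.88) and *SERPINI1* (-1.98). Among metabolic, metal, channel and interferon genes they were *CKB* (-2.00), *FABP3* (-1.66), *SDHB* (-1.02), *NDUFC2* (-1.13), *SLC39A8* (-1.41), *TFRC* (-1.63), *MT2A* (-1.85), *KCNMB4* (-2.02), *IFI35* (-1.07) and *IFI6* (-1.20).

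The other named genes with positive values were *COL24A1* (2.51), *CELF6* (1.63), *STK32A* (1.14), *PARP3* (1.37), *ETS2* (1.02), *RCAN1* (1.24), *ENGASE* (1.35), *HSF4* (1.19), *LINC01531* (1.65), *CLDN15* (1.11), *HERC2P2* (1.38), *PLA2G6* (1.19), *SEC31B* (1.46), *PABPC1L* (1.19), *FGFR2* (1.54), *KCNIP2* (1.37) and *ZNF862* (1.48), and those with negative values *TMSB15A* (-2.75), *TESC* (-1.09), *CAPN3* (-1.25) and *ATP6V0E2* (-1.10).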

How the results depend on the processing

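The day 21 comparison gave 1226 calls, of which 598 were higher and 628 lower. Leaving out a library gave 52 to 4248 genes, 15 to 2541 higher and 37 to 1707 lower, lowest without FAKi replicate 2 and highest without DMSO replicate 3. In a fit that leaves out a library, each arm still held at least 2. With the replicate block there were 2076, 1285 and 791, so the share called higher was 61.9% in place of 48.8%. The block without both libraries of replicate 1, 2 or 3, added after seeing the data, gave 1642 (983 higher), 1447 and 3030 (1751 higher, 1279 lower), and DESeq2 with the block, also added, 1860 (1123 higher). The block changed few other calls among the 116 named genes: 114 kept their side of the thresholds, *HERC2P3* (log2 fold change 2.51) gained a call and *COX8A* (-0.99) lost it.

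No count filter gave 1913 genes (1040 higher), all 27 libraries in a single fit 1954 (1018 higher), DESeq2 1833 (963 higher), an adjusted p of at most 0.05 alone 2692 (1224 higher, 1468 lower) and an adjusted p of at most 0.01 309 (119 higher, 190 lower). The other scalings and filters, the newer quasi-likelihood method and the removal of mitochondrial genes gave 1002 to 1537 genes, within 1.5 times. The cause of these differences was not tested. The median log2 fold change of all genes moved by less than 0.1 under every alternative.

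The contrast with earlier days called 1071 genes, 517 above and 554 below. Without a day 21 library it called 485 to 2464, 196 to 1557 above and 289 to 907 below. RLE scaling, the stricter filter, DESeq2 and the replicate block (1168) stayed within 1.5 times.

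The only reversals were of *NOX5*, at -0.08 and not called, which was 0.13 without DMSO replicate 3 (-0.17 to 0.13 over the 6 fits that leave out a library) and 0.12 in the block without both libraries of replicate 3. Of the 116 named genes, 46 kept their side of the thresholds without FAKi replicate 2, 70 without FAKi replicate 3 and 85 to 110 without each of the other libraries. Genes under about 1 CPM rest on few counts.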
